A study of Drosophila melanogaster with 10 samples.

Results

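Transcripts of 36 genes that drive DNA replication and cell division were followed in *Drosophila melanogaster*, in RNA of whole female larvae of the third instar. The genes were taken by symbol from a list of cell cycle and replication genes, and no measured value enters the rule. Of the 36, 33 were found in the count table of 17402 genes, and all 33 passed the filter on low counts that left 13551 genes tested. *Orc1*, *Mcm3* and *Top2* were not matched and were not analysed here. The libraries came from 5 strains with 2 libraries each. The strains were labelled 51B (a null allele of *AGO2*), 51B/+ (that allele over a wild-type chromosome), V966M (an *AGO2* allele mutant for slicing), V966M/+ (that allele over a wild-type chromosome) and w (the control). *AGO2* encodes an Argonaute protein of the RNA interference pathway, and the study asked which transcripts depend on the protein itself and which on its catalytic activity. How many animals entered each library was not given in the sources used here.

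The members fall into 5 roles. Before S phase the origin recognition complex (Orc2) and Dup, the fly Cdt1, load the Mcm helicase on chromatin, and Geminin holds Dup in check. At the fork PCNA is the sliding clamp, while RnrL and RnrS form ribonucleotide reductase, which supplies deoxynucleotides. CycD with Cdk4 and CycE with Cdk2 act in G1 and S phase, Dacapo (dap) inhibits CycE/Cdk2, and CycA, CycB and CycB3 act with Cdk1 at mitosis once the String (stg) phosphatase has activated Cdk1. E2f1 with its partner Dp activates S phase genes, whereas E2f2 and the retinoblastoma protein Rbf repress them. Polo, the Aurora kinases, Incenp, the checkpoint proteins Bub1 and BubR1, the APC/C activator Fizzy (fzy) and the kinesin Pavarotti (pav) act in mitosis and cytokinesis. In the third instar larva the imaginal discs and neuroblasts divide by mitosis, whereas most of the body mass, such as fat body and salivary gland, grows by endocycles, in which replication runs without mitosis.

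The 10 libraries held 22337432 to 60886803 counts, and the library numbered 3 was the deeper one in all 5 strains. For each strain the library numbered 3 is given before the library numbered 4. *AGO2* was at 105 and 99.7 CPM (the count scaled to a common library size, after TMM normalization) in the libraries labelled 51B and at 3.85 and 2.84 CPM in those labelled 51B/+, against 229 and 152 CPM in w. It was at 236 and 163 CPM in V966M and at 249 and 194 CPM in V966M/+. The libraries labelled 51B/+ were thus the ones nearly without *AGO2* transcript, which goes against their strain label. The titles of both the 51B/+ and the V966M/+ libraries carry the allele name in duplicate, and for V966M the *AGO2* level does not tell the strains apart. Strain names below are the labels throughout, and no direction of a 51B or a V966M comparison should be read as one of homozygote against heterozygote. Mitochondrial transcripts took 5.57% to 16.5% of the counts. Of 11 testis markers 5 (*can*, *sa*, *aly*, *nht* and *dj*) had 0 counts in at least 1 library, and the summed level of the 11 was highest in the 51B/+ library numbered 3, with 14.3 to 21.0 CPM in the other 9.

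All 33 members were detected in every library. The lowest member count was 119, for *Orc2*, and the highest was 6750, for *E2f1*. Together the members made up 0.0841% to 0.128% of the counts of a library. Their summed level was 993 and 1021 CPM in 51B, 956 and 994 CPM in 51B/+, 942 and 930 CPM in V966M, 1022 and 1011 CPM in V966M/+, and 989 and 967 CPM in w. The highest sum was 9.84% above the lowest. That holds after TMM scaling, whereas the unscaled share of counts spanned the wider range given above. Since RNA came from whole animals, fewer dividing cells and less RNA per cell cannot be told apart in any of these values.

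Among the licensing genes *geminin* stood far above the rest when levels were set per length of exon. It averaged 33.9 CPM per kilobase of exon over the 10 libraries, compared with 6.65 CPM per kilobase for *dup*, whose protein Geminin inhibits. The ratio of *geminin* to *dup* lay between 4.42 and 6.01 in the 10 libraries, so the inhibitor transcript was well above that of the loader in each of them. *Orc2* was low, at 3.27 CPM per kilobase, below *dup* in 10 of 10 libraries and with no overlap of their ranges. The helicase subunits followed in the order *Mcm6* (12.9 CPM per kilobase), *Mcm5* (11.7), *dpa*, which encodes Mcm4 (9.09), and *Mcm2* (7.15). *Mcm6* was above *Mcm5* in 9 of 10 libraries, and *Mcm5* above *dpa* and *dpa* above *Mcm2* in 10 of 10, although the ranges of these neighbours overlapped. The subunits of 1 ring thus had unequal transcript levels, with *Mcm6* at 1.51 to 2.25 times *Mcm2*.

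The remaining helicase subunit, *Mcm7* (chromosome 3L, 8891596 to 8894310 of dm6), had the lowest level per kilobase of all members, 2.52 CPM, but its value is bound up with the way reads were counted. Antisense RNA *CR45871* covers 81.7% of its exon bases on the opposite strand. The libraries were unstranded, and reads that touch the exons of both genes have no certain origin and are by default assigned to neither. Over the 448 exon bases of *Mcm7* free of that overlap, the same counts come to 13.8 CPM per kilobase, beside 12.9 for *Mcm6*. *Cdk2* shares 43.9% of its exon bases with *CG17267* and *E2f2* shares 19.9% with *Mpp6*, and over the free bases their means were 5.89 and 8.50 CPM per kilobase, compared with 3.30 and 6.80 over all exon bases. Overlap took under 10% of the exon bases of every other member.

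At the fork *PCNA* was the most abundant member of all, at 35.6 CPM per kilobase of exon, ahead of *RnrS* at 23.9 and *RnrL* at 15.2. This order held in 10 of 10 libraries without overlap between neighbours. The small subunit of ribonucleotide reductase had 1.37 to 1.93 times the transcript of the large one.

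Among the cyclins and kinases the mitotic partners *CycA* and *Cdk1* were highest, at 19.7 and 18.6 CPM per kilobase, and did not differ beyond their spread (*CycA* was above *Cdk1* in 7 of 10 libraries). *CycB* came next at 12.2 CPM per kilobase and was below *Cdk1* in 10 of 10 libraries. *stg*, *CycD*, *dap* and *Cdk4* lay between 9.39 and 7.53 CPM per kilobase with overlapping ranges, followed by *CycB3* at 6.16. *CycE*, at 3.62 CPM per kilobase, was below *CycB3* in every library. The place of its partner *Cdk2* was not read, since the overlap given above lowers its value. Transcript of the inhibitor *dap* was 1.79 to 3.22 times that of *CycE*. In the E2F group *Dp* averaged 22.5 CPM per kilobase, *E2f1* 17.5, *Rbf* 10.3 and *E2f2* 6.80. *E2f1* was thus above its antagonists *Rbf* and *E2f2* in 10 of 10 libraries, with 2.04 to 3.71 times the transcript of *E2f2*. That ratio is over all exon bases and is raised by the overlap of *E2f2* given above. Over the free bases the means were 18.3 CPM per kilobase for *E2f1* and 8.50 for *E2f2*. Of the mitotic genes *polo* (17.7 CPM per kilobase) and *Incenp* (16.7) were highest and changed places from library to library, with *polo* ahead in 5 of 10. *fzy*, *pav* and *aurB* lay between 9.81 and 8.78 CPM per kilobase and overlapped, and *Bub1* (4.76), *aurA* (3.65) and *BubR1* (2.85) were the lowest. Incenp and Aurora B belong to 1 complex, yet *Incenp* had 1.45 to 2.27 times the transcript of *aurB*.

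**Figure D1:**
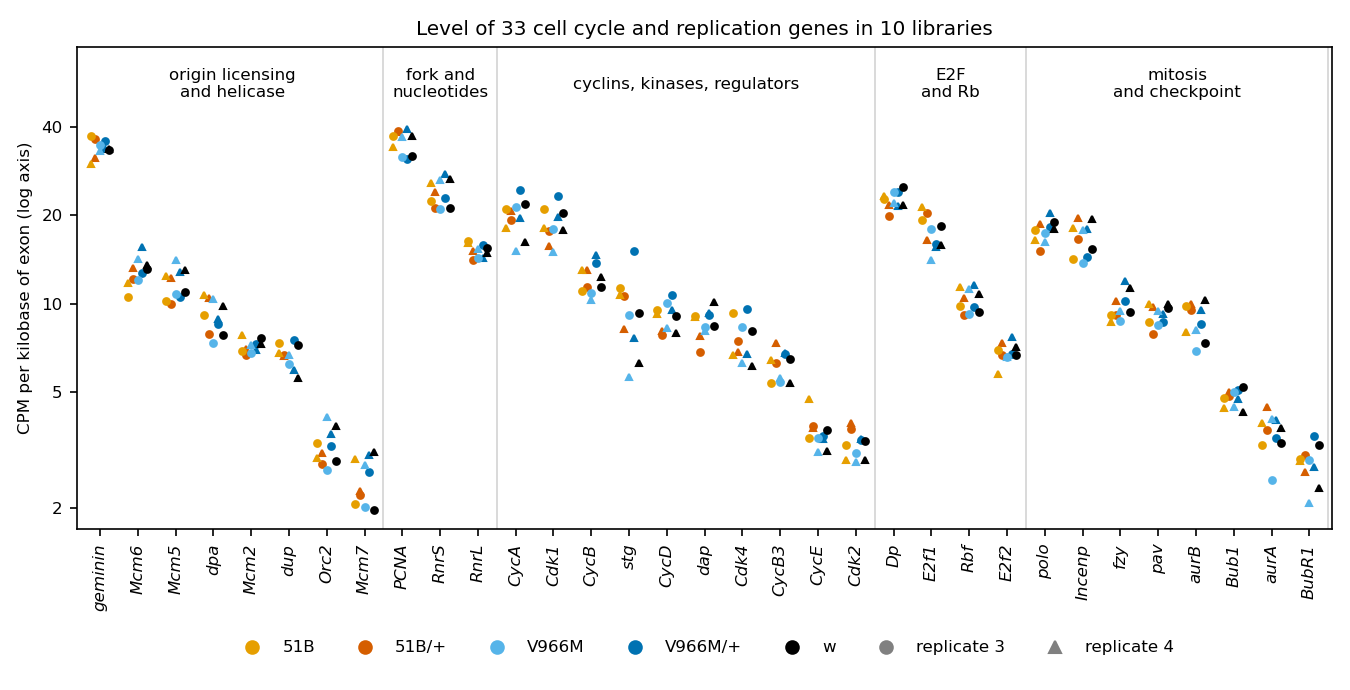
Level of each of the 33 members in the 10 libraries as CPM per kilobase of exon (log axis), grouped by role and ordered by mean within a role; colours are strains as labelled, circles are the libraries numbered 3 and triangles those numbered 4. Means run from 35.6 for *PCNA* to 2.52 for *Mcm7*, and the 10 points of a gene lie close together except for *stg*.

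The members varied little across the 10 libraries. The SD of log2 CPM had a median of 0.16 over the 33 members, from 0.07 for *Mcm2* to 0.41 for *stg*, compared with 0.25 over all genes tested and 0.24 over the 6555 genes within the members' range of mean CPM. The highest library was under 1.5 times the lowest for 23 members, between 1.5 and 2 times for 9, and over 2 times for *stg* alone. Among the 6555 genes of like level, 2095 (32.0%) spanned 2-fold or more. *RnrL* and *Mcm2* were the most even members, at 1.15 and 1.17 times, and the genes after *stg* were *aurA* (1.78 times), *BubR1* (1.68) and *CycA* (1.61).

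In each role the member with the widest range is given here in full. *stg* (chromosome 3R, 29251826 to 29255800) was at 34.7 and 32.8 CPM in the libraries labelled 51B, 32.5 and 25.1 CPM in 51B/+, 28.0 and 17.2 CPM in V966M, 46.3 and 23.4 CPM in V966M/+, and 28.4 and 19.3 CPM in w. Its 2 libraries of V966M/+ alone spanned most of the range of the 10, and only in 51B were both libraries above both w libraries. The summed imaginal disc markers are set beside it. That sum of 10 genes, none at 0 in any library, was 257 and 257 CPM in 51B, 258 and 257 CPM in 51B/+, 244 and 187 CPM in V966M, 308 and 255 CPM in V966M/+, and 266 and 224 CPM in w. Both *stg* and the disc sum were highest in the V966M/+ library numbered 3 and lowest in the V966M library numbered 4. Between these extremes they went apart. The disc sum was 255 to 258 CPM in 51B, 51B/+ and the V966M/+ library numbered 4, where *stg* ran from 23.4 to 34.7 CPM. The part of disc content in the *stg* values was not tested.

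*Mcm7* was at 5.09 and 7.21 CPM in 51B, 5.45 and 5.60 CPM in 51B/+, 4.96 and 6.90 CPM in V966M, 6.51 and 7.46 CPM in V966M/+, and 4.84 and 7.63 CPM in w. The strains overlapped, and the library numbered 4 was the higher one in all 5. *RnrS* (chromosome 2R, 11983145 to 11985393) was at 35.7 and 41.0 CPM in 51B, 33.8 and 38.4 CPM in 51B/+, 33.4 and 41.9 CPM in V966M, 36.5 and 44.1 CPM in V966M/+, and 33.7 and 42.4 CPM in w. Its libraries also split by number and not by strain. *aurA* (chromosome 3R, 11963124 to 11964826) was at 5.21 and 6.16 CPM in 51B, 5.85 and 7.00 CPM in 51B/+, 3.93 and 6.37 CPM in V966M, 5.46 and 6.30 CPM in V966M/+, and 5.26 and 5.95 CPM in w, with 1 low library in V966M. *E2f1* (chromosome 3R, 21620304 to 21660871) was at 125 and 137 CPM in 51B, 132 and 106 CPM in 51B/+, 115 and 91.0 CPM in V966M, 103 and 101 CPM in V966M/+, and 119 and 102 CPM in w. Both 51B libraries exceeded both w libraries for *E2f1*, while the other 3 strains overlapped w.

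The first question of the design was whether an *AGO2* allele altered these transcripts relative to w. No member passed the test in any of the 4 comparisons (edgeR quasi-likelihood test, Benjamini-Hochberg adjusted p under 0.1 over 13551 genes). None of the 132 tests reached an unadjusted p under 0.05 either, which 10.8% of all genes did for 51B, 11.7% for 51B/+, 4.43% for V966M and 11.2% for V966M/+. DESeq2 called 0 members in all 4, beside 5.2% of all genes with an adjusted p for 51B, 4.72% for 51B/+, 0.568% for V966M and 5.68% for V966M/+. Of all genes tested, 0.738% were called when 51B was set against w, 1.79% for 51B/+, 0.125% for V966M and 1.14% for V966M/+, so a list of 33 genes at these rates would hold few calls or none. The intervals give more than the calls. For 129 of the 132 tests the 95% interval of the fold change lay within 2-fold in either direction, and the other 3 all belonged to *stg*. The share of intervals within 2-fold among genes of like level was 77.8% to 83.6% in the 4 comparisons. Within 1.5-fold lay the intervals of 22 members for 51B, 25 for 51B/+, 25 for V966M and 24 for V966M/+.

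**Figure D2:**
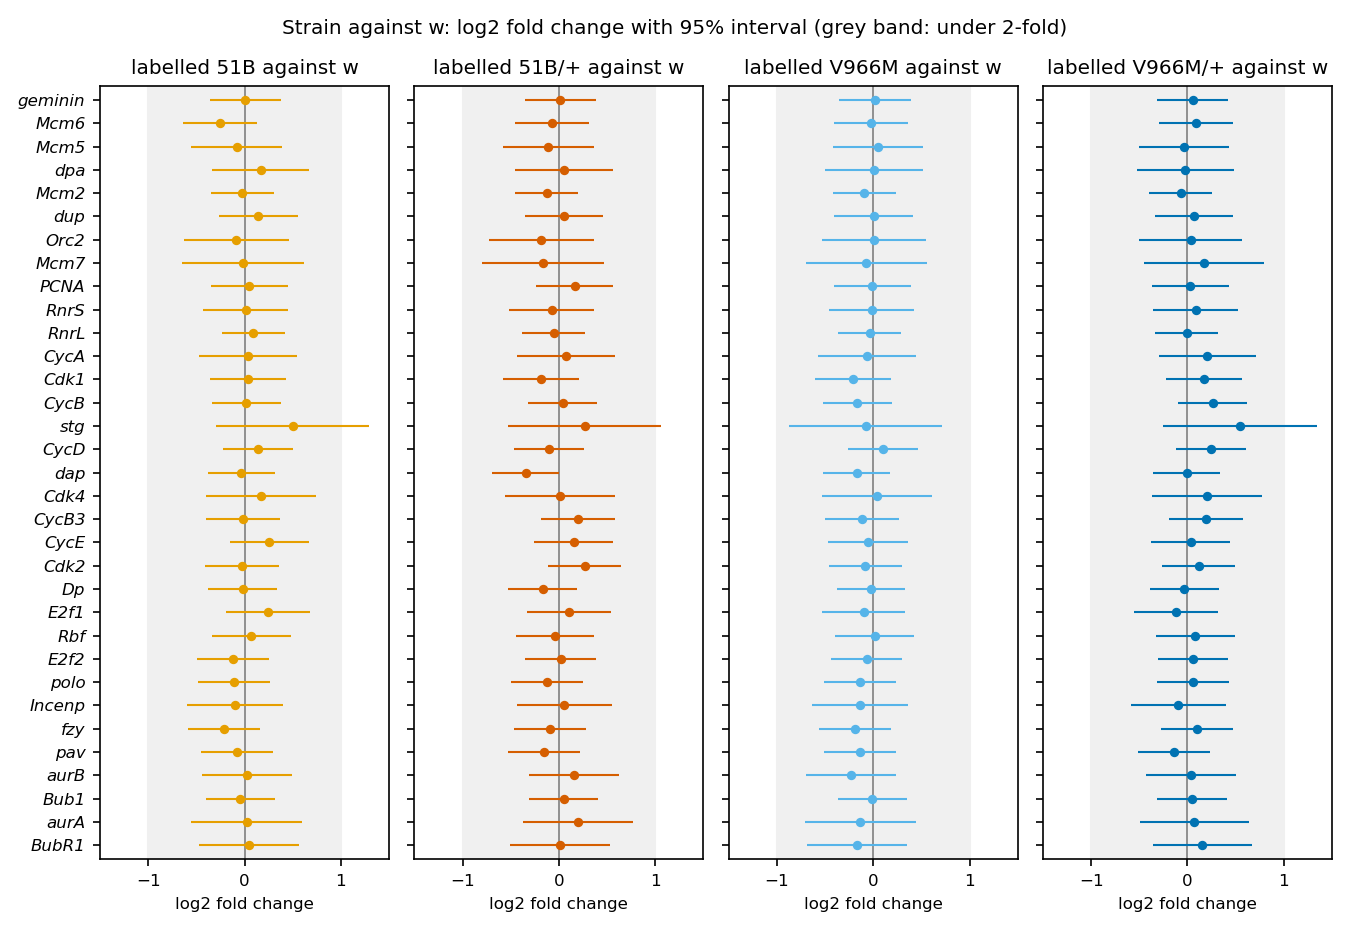
Log2 fold change of each member in the 4 strains, as labelled, against w (points) with its 95% interval (lines) from the edgeR fit of 10 libraries; the grey band marks changes under 2-fold. Every interval includes 0, and only those of *stg* leave the band.

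In 51B against w the members were centred on no change, with a median log2 fold change of 0.01, beside -0.02 for all genes tested, and a range of -0.26 to 0.50. *stg* had the largest estimate, 0.50 (SE 0.35, 95% interval -0.30 to 1.30, adjusted p = 0.666). The smallest p belonged to the helicase subunit *Mcm6*, which was at 29.5 and 32.8 CPM in 51B, against 36.5 and 37.9 CPM in w. Its log2 fold change was -0.26 (SE 0.17, adjusted p = 0.637), and although the 2 strains did not overlap, the difference was within the spread that the fit estimates. Both 51B libraries were above both w libraries for 4 members (*stg*, *E2f1*, *CycD*, *RnrL*), 12.1% of 33, whereas 19.3% of all genes tested did so. They were below both for 3 (*Mcm6*, *fzy*, *polo*), 9.09%, beside 22.4% of all genes.

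In 51B/+ against w, which had the lowest *AGO2* fold change of the comparisons with w, the median was 0.01, beside 0.02 for all genes tested, and the range was -0.34 to 0.27. The lowest value was that of *dap* (chromosome 2R, 9712321 to 9716256), the CycE/Cdk2 inhibitor, which was at 17.3 and 19.6 CPM in 51B/+, against 21.2 and 25.6 CPM in w. Both 51B/+ libraries were below those of w, and the log2 fold change was -0.34 (SE 0.15, 95% interval -0.69 to 0.01, adjusted p = 0.433). *Cdk2*, the kinase that Dacapo inhibits, was at 8.56 and 8.97 CPM in 51B/+, against 7.81 and 6.71 CPM in w, and had the next smallest p (log2 fold change 0.27, SE 0.17, adjusted p = 0.584). Higher in both libraries were *Cdk2*, *PCNA* and *CycE*, 9.09% of the members beside 19.7% of all genes, and lower in both were *dap*, *Dp*, *Cdk1* and *Mcm2*, 12.1% beside 18.2%. Members whose strains did not overlap were in neither direction more frequent than genes at large.

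In V966M against w the members leaned slightly downward, with a median log2 fold change of -0.07, beside -0.02 for all genes tested. Of the 33, 25 were below 0, beside 53% of all genes, and all 8 mitotic genes were among them. Set against the median of all genes in place of 0, 13 of the 33 members were above it, 1 of them mitotic. None of these values passed the test, and the smallest p, that of *Cdk1*, was at an adjusted p of 1 (log2 fold change -0.21, SE 0.18). *Cdk1* was at 19.4 and 16.2 CPM in V966M, against 21.9 and 19.3 CPM in w, and the strains overlapped. All 33 intervals were within 2-fold in this comparison, the widest being that of *stg*, from -0.87 to 0.72. No member was higher in both V966M libraries, beside 15.6% of all genes, and 6 were lower (*dap*, *CycB*, *polo*, *pav*, *Mcm2*, *E2f2*), 18.2% beside 15.2% of all genes.

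In V966M/+ against w the members leaned the other way, with a median of 0.06, beside 0.00 for all genes tested, and 24 of 33 above 0, beside 48% of all genes. Of the 10 cyclins, kinases and their regulators 9 were above 0, with a median of 0.20. *stg* was again the largest (0.54, 95% interval -0.25 to 1.34), and *CycB* had the smallest p. *CycB* (chromosome 2R, 22803521 to 22806948), a mitotic partner of Cdk1, was at 41.9 and 44.7 CPM in V966M/+, against 34.6 and 37.7 CPM in w. The libraries did not overlap, and the log2 fold change was 0.26 (SE 0.16, adjusted p = 0.641). *CycB*, *CycD*, *CycB3* and *Cdk2* were higher in both V966M/+ libraries, 12.1% of the members beside 18.2% of all genes. *pav* and *Mcm2* were lower in both, 6.06% beside 21.2%.

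The second question was how the strain labels of each allele compared with one another, and how labels of the 51B allele compared with those of V966M. These 4 comparisons share libraries with those above and with one another. Again no member was called by edgeR with strain as the only term, and 1 of 132 tests, *CycB* in V966M against V966M/+, had an unadjusted p under 0.05. The share of all genes under that value was 5.96% for 51B against 51B/+, 19% for V966M against V966M/+, 5.51% for 51B against V966M and 19% for 51B/+ against V966M/+. DESeq2 called 1 member, the same *CycB* in the same comparison, where it called 15.8% of all genes with an adjusted p. It called 0.866% of them in 51B against 51B/+, 0.817% in 51B against V966M and 12% in 51B/+ against V966M/+. Intervals within 2-fold were found for 128 of 132 tests, and the 4 others were again those of *stg*.

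V966M against V966M/+ held the largest differences. Here 6.7% of all genes tested were called, and 0 of 33 members. All 10 cyclins, kinases and regulators were below 0 in V966M, as were 7 of 8 mitotic genes and 28 of 33 members in all, beside 51.6% of all genes. The median was -0.11 for the members and -0.23 for the cyclin and kinase group, beside -0.02 for all genes tested. *CycB* was at 33.1 and 31.3 CPM in V966M, against 41.9 and 44.7 CPM in V966M/+. The 2 libraries of each strain lay close together and the strains were well apart, and the log2 fold change was -0.42 (SE 0.16, 95% interval -0.78 to -0.06, adjusted p = 0.191). *Cdk1* was at 19.4 and 16.2 CPM in V966M, against 25.1 and 21.4 CPM in V966M/+ (log2 fold change -0.38, SE 0.18, adjusted p = 0.281), and the mitotic cyclin *CycB3* was at 15.5 and 16.0 CPM, against 19.4 and 19.6 CPM (log2 fold change -0.30, SE 0.17, adjusted p = 0.375). For both genes the strains did not overlap, but neither passed the test in this fit, which has strain as its only term. With the library number as a further term *CycB* and *Cdk1* were called, and the closing section gives the share of all genes beside them.

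In all, 9 members were lower in both V966M libraries than in both V966M/+ libraries (*CycB*, *Cdk1*, *CycB3*, *fzy*, *aurB*, *polo*, *Cdk2*, *dap*, *E2f2*) and 0 were higher. Those 9 were 27.3% of the members, beside 24.5% of all genes tested that were lower without overlap and 24.8% that were higher. Over the 8 strain comparisons *CycB* was the 1 member on which edgeR and DESeq2 disagreed, with an adjusted p of 0.0918 by DESeq2. *stg* had the largest estimate here too, -0.62, but its libraries overlapped and its interval ran from -1.42 to 0.18. The disc marker sums of 244 and 187 CPM in V966M and 308 and 255 CPM in V966M/+ moved in the same direction, as did the neuroblast sums of 30.3 and 24.4 CPM in V966M and 31.7 and 37.2 CPM in V966M/+ and the neuron sums of 312 and 314 CPM in V966M and 341 and 374 CPM in V966M/+. The fat body sums went the other way, at 62930 and 66714 CPM in V966M and 49558 and 45857 CPM in V966M/+. Hemocyte sums overlapped, at 338 and 277 CPM in V966M and 361 and 311 CPM in V966M/+. Salivary gland sums also overlapped, at 10594 and 9433 CPM in V966M and 10184 and 10488 CPM in V966M/+, as did the testis and female germline sums. The part of these tissues in the difference was not tested.

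**Figure D3:**
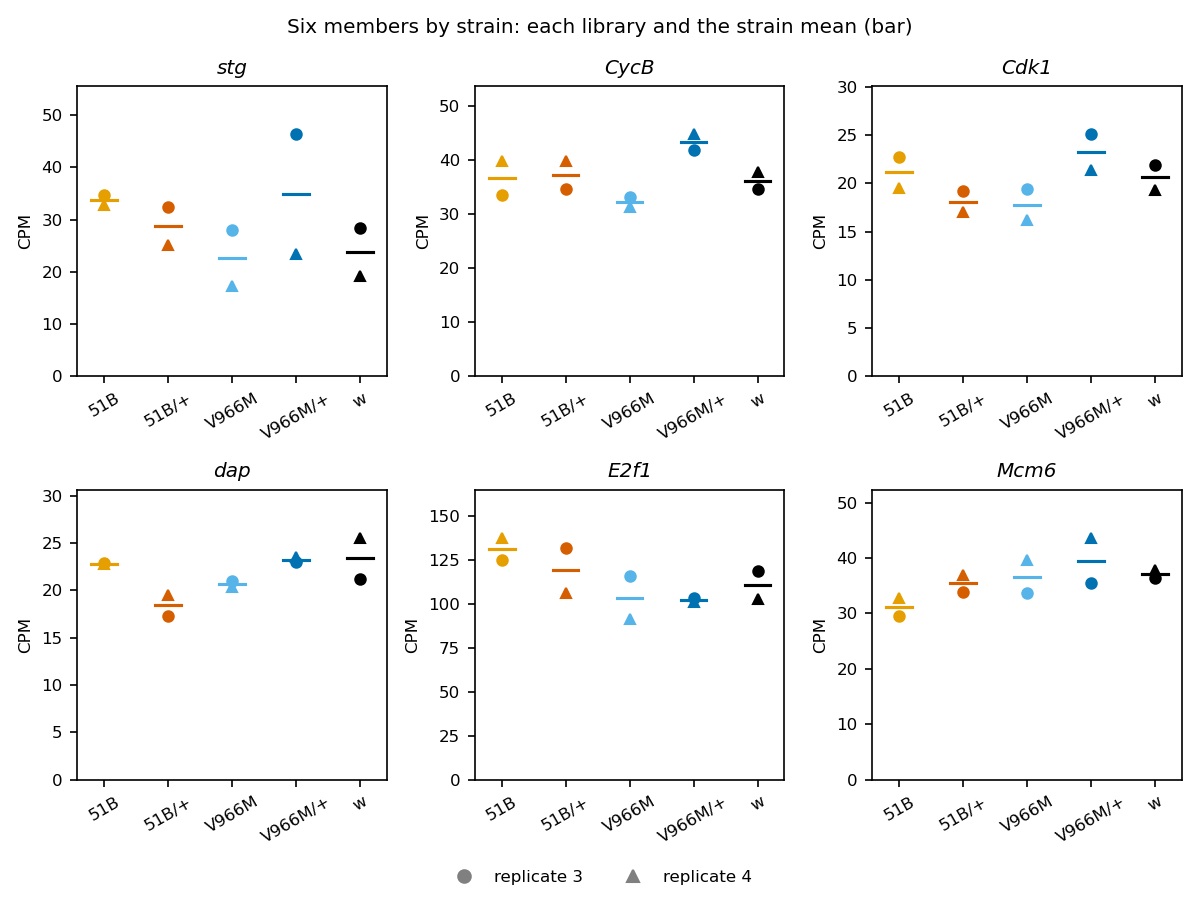
CPM of *stg*, *CycB*, *Cdk1*, *dap*, *E2f1* and *Mcm6* in each library by strain as labelled; circles are the libraries numbered 3, triangles those numbered 4, and bars the strain means. *CycB* separates V966M (33.1 and 31.3 CPM) from V966M/+ (41.9 and 44.7 CPM), and *stg* spreads from 23.4 to 46.3 CPM within V966M/+ alone.

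In 51B against 51B/+ the median log2 fold change was 0.08, beside -0.03 for all genes tested, of which 0.0812% were called. *dap* had the smallest p, at 22.9 and 22.8 CPM in 51B, against 17.3 and 19.6 CPM in 51B/+ (log2 fold change 0.31, SE 0.15, adjusted p = 0.791). Its 51B/+ libraries were the lowest 2 of the 10, which is the same low point that appeared against w and against V966M/+. Of the members 7 were higher and 5 lower in both 51B libraries, or 21.2% and 15.2%, beside 16.8% and 18.1% of all genes.

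In 51B against V966M, 0.118% of all genes were called and the members' median was 0.06, beside -0.03 for all genes tested. All 10 cyclins, kinases and regulators were above 0, beside 46.1% of all genes, but 8 of 10 with total counts as the scale. *E2f1* had the smallest p, at 125 and 137 CPM in 51B, against 115 and 91.0 CPM in V966M. The strains did not overlap, and the log2 fold change was 0.34 (SE 0.19, adjusted p = 0.895). Both 51B libraries were higher for 8 members, 24.2% beside 15.5% of all genes, and lower for 1, *Mcm6*, 3.03% beside 18.4%.

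In 51B/+ against V966M/+, 6.07% of all genes were called, and the members' median was -0.08, beside 0.03 for all genes tested. The 3 smallest p belonged to cyclin and kinase genes. *dap* was at 17.3 and 19.6 CPM in 51B/+, against 23.1 and 23.5 CPM in V966M/+ (log2 fold change -0.34, SE 0.15, adjusted p = 0.274). *CycD* was at 19.2 and 19.7 CPM in 51B/+, against 26.1 and 23.3 CPM in V966M/+ (log2 fold change -0.35, SE 0.16, adjusted p = 0.279), and *Cdk1* had a log2 fold change of -0.36 (SE 0.18, adjusted p = 0.300). All 3 were lower without overlap and none was called. Lower in both 51B/+ libraries were 7 members, 21.2% beside 23.5% of all genes, and higher were 4, 12.1% beside 26%.

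A wider list of 64 other replication and mitosis genes also gave few calls. Of these, 62 were matched and 61 tested. The origin recognition gene *lat* (*Orc3*) was listed at 0 counts in every library, and all its exon bases overlap *CG34315* on the same strand, so its level cannot be read from these counts. In 7 of the 8 strain comparisons 0 of the 61 genes were called by edgeR, beside 0.0812% to 6.7% of all genes. In these 7, 0 to 3 had an unadjusted p under 0.05, beside 4.43% to 19% of all genes. The exception was *DNApol-delta*, the catalytic subunit of replicative polymerase delta, in 51B/+ against V966M/+. That call was 1.64% of the 61 genes, beside 6.07% of all genes, and was not repeated under the alternative settings. *DNApol-delta* was at 7.82 and 7.79 CPM in 51B/+, against 11.5 and 11.8 CPM in V966M/+, and at 10.2 and 10.4 CPM in w. It was lower in both 51B/+ libraries than in any other library, and against V966M/+ its log2 fold change was -0.58 (SE 0.15, adjusted p = 0.0881). In V966M against V966M/+ 51 of the 61 genes were below 0, beside 51.6% of all genes, with a median of -0.15. Lower without overlap there were 36.1% of the 61, beside 24.5% of all genes, and higher 1.64%, beside 24.8%. In V966M against w these shares were 26.2% beside 15.2% and 3.28% beside 15.6%. In each other comparison the share lower without overlap was under that of all genes. The share higher exceeded it in 51B against 51B/+ (19.7% beside 16.8%) and 51B against V966M (21.3% beside 15.5%).

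Members did differ between the libraries numbered 3 and those numbered 4, a comparison with 5 libraries on each side and therefore smaller errors than those between strains. The labels do not say what the numbers mark, and the comparison was chosen after the data were seen. With strain as a term in the fit, 6 of 33 members (18.2%) were called between the numbers by edgeR, beside 9.73% of all genes tested. DESeq2 called 7 (21.2%), beside 16.8% of all genes with an adjusted p. With edgeR 12 members had an unadjusted p under 0.05, beside 23.6%. *Cdk4*, the CycD partner, was higher in the libraries numbered 3, at 22.9, 18.4, 20.5, 23.6 and 19.9 CPM in 51B, 51B/+, V966M, V966M/+ and w, against 16.4, 16.8, 15.4, 16.6 and 15.0 CPM in those numbered 4. The 5 pairs moved 1 way and the 2 sets did not overlap (log2 fold change 0.39, SE 0.09, adjusted p = 0.0514). *stg* was also higher in the libraries numbered 3 in 5 of 5 strains (log2 fold change 0.54, SE 0.13, adjusted p = 0.0585).

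Lower in the libraries numbered 3 were 2 helicase subunits, *Mcm5* and *dpa*, with *RnrS* and *Incenp*. *Incenp*, a chromosomal passenger subunit, was at 40.4, 46.9, 38.9, 41.0 and 43.5 CPM in the libraries numbered 3, against 51.5, 55.4, 50.7, 51.1 and 54.9 CPM in those numbered 4, with no overlap (log2 fold change -0.32, SE 0.07, adjusted p = 0.0551). *Mcm5* was at 24.9, 24.4, 26.3, 25.8 and 26.8 CPM in the libraries numbered 3, against 30.5, 29.9, 34.4, 31.4 and 31.8 CPM in those numbered 4, again with no overlap (log2 fold change -0.30, SE 0.07, adjusted p = 0.0616). *RnrS* and *dpa* had log2 fold changes of -0.26 (adjusted p = 0.0883) and -0.31 (adjusted p = 0.0913) and were lower in 5 of 5 strains. The 6 calls were small, and all 33 intervals of this comparison lay within 2-fold.

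Counted by direction alone, 4 members were higher in the library numbered 3 in all 5 strains (*Cdk4*, *stg*, *BubR1*, *Cdk1*), 12.1% beside 11.1% of all genes. Lower in all 5 were 9 (*Incenp*, *Mcm5*, *RnrS*, *dpa*, *Rbf*, *Mcm7*, *aurA*, *Mcm6*, *pav*), 27.3% beside 10.4%. Depth moved with the number, at 38930502 to 60886803 counts in the libraries numbered 3 and 22337432 to 26129296 in those numbered 4, and so did the mitochondrial share, which was higher in the library numbered 3 in 5 of 5 strains. Summed disc markers were also higher in the library numbered 3 in 5 of 5 strains (244 to 308 CPM, against 187 to 257 CPM), as were 5 hemocyte markers (294 to 557 CPM, against 221 to 429 CPM), and the female germline markers (2.19 to 3.28 CPM, against 1.60 to 2.32 CPM). The disc sums were nearly level, however, in 51B (257.2 and 256.9 CPM) and in 51B/+ (258.3 and 257.2 CPM). The 6 neuroblast markers were higher in 2 of 5 strains and the fat body markers in 1 of 5. The part of depth, mitochondrial share or tissue content in these differences was not tested. The count of 6 depended on the libraries kept. Calls over all genes also varied, from 43 to 1659 over the alternative settings of this comparison, beside 1318 in the report's fit. The share of all genes called with a given library left out is not set beside the counts that follow, so they describe no trait particular to the members. Leaving out either 51B/+ library gave 6 calls (*Mcm5*, *Mcm7*, *CycA*, *Cdk4*, *stg*, *Incenp*), leaving out either 51B library gave 1 (*stg*), and leaving out any library of V966M, V966M/+ or w gave 0, while the fold changes of the 6 genes called with all libraries kept their sign in each case.

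**Figure D4:**
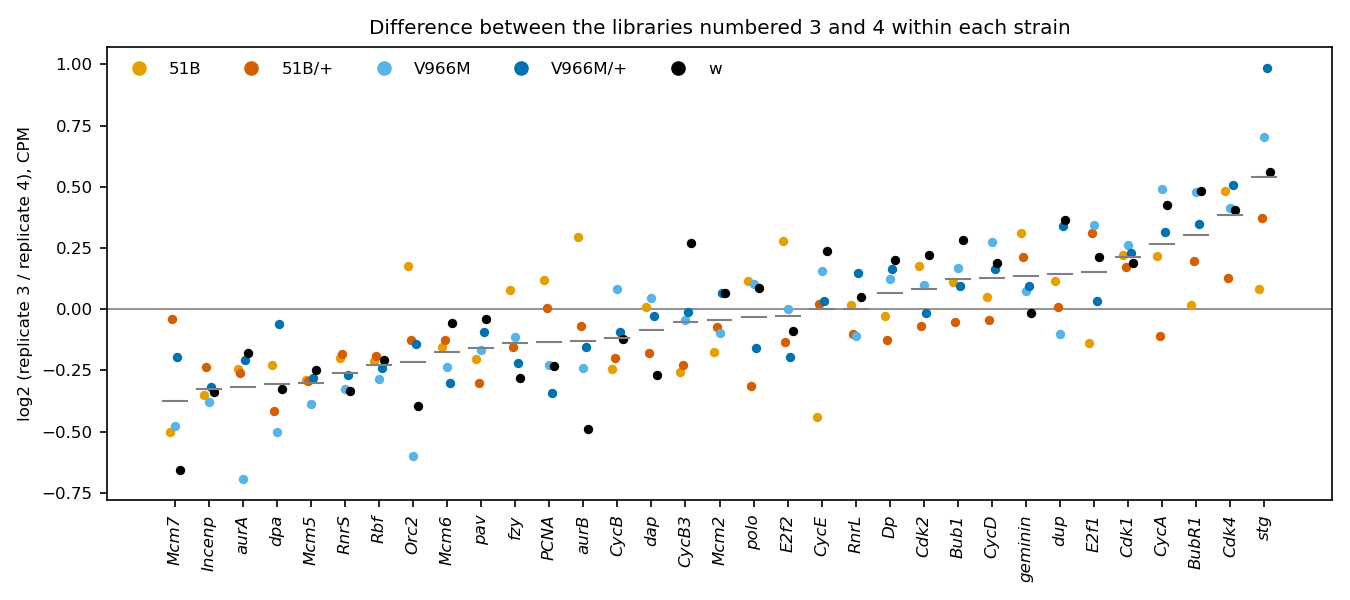
Log2 ratio of CPM between the library numbered 3 and the library numbered 4 of each strain (points, coloured by strain as labelled) for the 33 members, ordered by their mean (bars). *Mcm5*, *Incenp*, *RnrS* and *Rbf* lie below 0 with their 5 points close together, *Cdk4* and *stg* lie above 0, and *stg* has the widest spread among the members above 0.

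Of the other genes on the wider list, 3 were higher in the libraries numbered 3 and 5 were lower, 13.1% of 61 beside 9.73% of all genes. Those with the smallest p were *tum*, the partner of Pavarotti in cytokinesis (log2 fold change -0.40, SE 0.07, adjusted p = 0.0355), and *Cdc7*, the kinase that fires loaded origins (log2 fold change 0.44, SE 0.09, adjusted p = 0.0416).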

How the data were processed

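RNA of whole female larvae, labelled as polyadenylated, was read as 50-base single ends. The protocol names poly(A) selection and rRNA depletion side by side without assigning them to libraries. The authors trimmed reads with cutadapt 1.10, aligned them to dm6 with HISAT2 2.0.4, counted them over the exons of FlyBase genes with featureCounts 1.5.0-p3 without strand, and deposited the raw counts per gene and library.

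Symbols were matched to gene identifiers through the Ensembl annotation of dm6, which held 17210 of the 17402 genes. Besides 3 members, *RPA2* and *RPA3* of the wider list and the disc marker *wg* were not matched. Exon length is the union of a gene's exons. Libraries were grouped by the strain named in the labels. Genes with at least 10 counts over the 10 libraries entered the quasi-likelihood test of edgeR 4.0.16 after TMM scaling (robust, R 4.3.3), with 5 strains in 1 fit and Benjamini-Hochberg adjustment over 13551 genes. A gene was called at an adjusted p under 0.1, the threshold the study gives for its nascent RNA data. SE was the fold change over the root of F, and 95% intervals came from the same fit. SD of log2 CPM used a pseudocount of 0.5. Raw counts of the 2 libraries of a strain gave a chi-square per degree of freedom of 96.8 to 182. This sets their variance over that of sampling, summed over all genes without TMM scaling, and is no value for a typical member. The design text calls the 2 libraries of a strain biological replicates without saying how animals were divided, and p-values measure the spread between these libraries.

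Alternatives were DESeq2 1.42.0, RLE scaling, total counts, no mitochondrial genes, 2 other count filters, an adjusted p under 0.05, a fit of 2 strains, a replicate block and leaving out each library. Members, lists and markers were chosen with earlier results of these data known. Values in every library were given for called members, for the member with the widest range in each role and, chosen after their values were seen, for members with the smallest p of a comparison. Called genes of the wider list were named, at most 2 a comparison. A planned promoter motif search was not run, since no sequence was used here.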

Additional observations from a re-analysis of the deposited data

How the results depend on the processing

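The number of members called between strains was 0 under all 19 alternatives in 6 of 8 comparisons. In V966M against V966M/+ it was 1 with DESeq2, 2 (*CycB*, *Cdk1*) with the replicate block and 9 with total counts, all lower in V966M, where 15.8%, 13.3% and 20.8% of all genes were called. *CycB* had adjusted p = 0.0918 with DESeq2, 0.0902 with the block and 0.0542 with total counts (0.0542 to 0.707 over its alternatives). In 51B/+ against V966M/+ it was 3 with total counts (*CycD*, *Cdk1*, *dap*, lower in 51B/+), beside 8.97% of all genes. Total counts moved the median of all genes by as much as 0.37 in size (log2), and the members moved with it. Against w their median was then -0.19 (51B), -0.049 (51B/+), -0.20 (V966M) and 0.30 (V966M/+). It was -0.078 in 51B against 51B/+, -0.49 in V966M against V966M/+, -0.013 in 51B against V966M and -0.37 in 51B/+ against V966M/+. In 51B against w the median was 0.039 with DESeq2 or RLE scaling and 0.040 with 2 strains in the fit, and in 51B against V966M it was 0.090 with 2 strains in the fit. Leaving out each library in turn gave medians against w of 0.0018 to 0.046 (51B), -0.093 to 0.022 (51B/+), -0.13 to -0.045 (V966M) and 0.0027 to 0.084 (V966M/+), and of -0.0012 to 0.11 in 51B against 51B/+, -0.15 to -0.10 in V966M against V966M/+, 0.058 to 0.13 in 51B against V966M and -0.15 to -0.026 in 51B/+ against V966M/+. Between the libraries numbered 3 and 4 the count of 6, beside 9.73% of all genes, was 7 with DESeq2, beside 16.8%. It was 3 with total counts, 0 at an adjusted p under 0.05, and 0 to 6 with 1 library left out. Calls over all genes ran from 43 to 1659 over the alternatives, so these counts describe no trait particular to the members. With 1 library left out the members' median ran from -0.081 to -0.012.

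The replicate block changed no other call of a member. Whether equal numbers pair libraries was checked by correlating the differences between libraries 3 and 4 of 2 strains over genes. The correlation was 0.04 to 0.42 and over 0.1 in 8 of 10 pairs of strains. It was positive in every pair, so the differences between the numbers were partly shared by the strains, though weakly in some pairs. These values do not settle whether the libraries are paired, since the labels do not say what the number marks. The report's fit left the number out, and its strain tests hold for a fit without that term.

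Calls over all genes, the background of the members' counts, depended far more on the setting. They were 12 to 685 in 51B against w (100 in the report's fit), 86 to 850 in 51B/+ (242), 3 to 65 in V966M (17), 72 to 665 in V966M/+ (155), 6 to 171 in 51B against 51B/+ (11), 17 to 2818 in V966M against V966M/+ (908), 0 to 100 in 51B against V966M (16), 62 to 1557 in 51B/+ against V966M/+ (823) and 43 to 1659 between numbers (1318). With total counts the share of higher genes among calls was 22.1% in V966M against V966M/+ (84.6% with TMM), 37.1% in 51B/+ against V966M/+ (74.4%), 60.4% in V966M/+ against w (36.8%), 26.9% in 51B against w (57%) and 61.1% in 51B against 51B/+ (72.7%). With 2 libraries a strain, small differences were not detectable for many members. The smallest fold change that would be called was not computed. For a given SE it is larger where fewer genes were called, as in V966M against w (17). The absence of called members therefore excludes no change above 1.5-fold, and limits on size rest on the intervals of the fit alone.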
